A study of Schizosaccharomyces pombe with 56 samples.

Results

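The 10 genes described here encode enzymes of glycolysis and of the fermentation steps that follow it in fission yeast (Schizosaccharomyces pombe): pfk1, fba1, tpi1, tdh1, gpd3, pgk1, eno101, pyk1, pdc101 and adh1. They are 10 of the 5113 protein-coding genes annotated on the 3 nuclear chromosomes, 2 of them on chromosome I, 6 on chromosome II and 2 on chromosome III. A gene was counted under a region of the deposited table when the region overlapped its annotated body by at least 1 bp. All 10 lay under exactly 1 region each, so no member was without a region, and no region was shared between members.

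The series profiled dimethylation of histone H3 at lysine 9 (H3K9me2) by ChIP-seq, with 24 H3K9me2 libraries, 6 H3K9me3 libraries and 26 inputs. The groups used here are wild-type cells (strain 975 h+) grown at 32 °C in supplemented minimal medium EMM, taken before the shift (0 h), and the same strain after 24 h in EMM lacking nitrogen. Each of these groups has 6 H3K9me2 libraries in the labels, and no allele or agent beyond the medium separates them. The labels list 4 inputs per group for them, so some of these libraries have no input of their own. Strains lacking clr4 or ago1, the 1 h time point and H3K9me3 were not analysed here. The labels do not say whether replicates came from separate cultures. The table held 2192 regions with 1 mean per group, of which 1385 had a p below 1, and depth per library was not given.

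Glycolysis splits glucose into pyruvate and gains ATP in its later steps. Pyruvate decarboxylase and alcohol dehydrogenase then turn pyruvate into ethanol and restore the NAD+ that the glyceraldehyde-3-phosphate dehydrogenase step uses. H3K9me2 is laid down in fission yeast by the methyltransferase Clr4 and is best known from the silent chromatin of centromeres, telomeres and the mating-type locus. Cells that lack nitrogen and find no mate leave the cell cycle and rest in quiescence, and the comparison asked where H3K9me2 differed between quiescent and growing cells.

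Before the values, 1 pair of sequences shows how far reads from the members can be told apart. Both tdh1 and gpd3 encode glyceraldehyde-3-phosphate dehydrogenase, and their coding sequences were identical at 93.3% of 1008 aligned bases. The longest stretch without a difference was 203 bases, at coding positions 577 to 779 in both genes, counted from 1 at the A of the start codon. The lines below give the last 60 bases of that stretch and the 60 that follow it, on the coding strand of the RefSeq genome ASM294v3, with differing bases in capitals.
tdh1 (chrII:2808356-2808475, plus strand): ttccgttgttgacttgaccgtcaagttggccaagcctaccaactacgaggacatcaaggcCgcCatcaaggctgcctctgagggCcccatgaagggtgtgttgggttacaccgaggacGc
gpd3 (chrII:579450-579569, plus strand): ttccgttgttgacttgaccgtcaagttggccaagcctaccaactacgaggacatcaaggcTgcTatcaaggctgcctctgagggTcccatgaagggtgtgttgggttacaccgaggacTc

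Of all 50-base windows in each gene body, 83.4% in tdh1 and 87.6% in gpd3 occurred once in the genome. In the other 8 members this share was 100%. The values of tdh1 and gpd3 are therefore uncertain where a read fell in sequence found in both, which is more than the longest stretch. How such reads were handled is not stated in the labels or files. The other members have no such copy: eno101 shared at most 18 bases in a row with the second enolase gene eno102, and pdc101 at most 17 with pdc201.

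H3K9me2 over every one of the 10 genes was at the lowest value of the table at 0 h and above it after 24 h without nitrogen. The same minimum was listed at 0 h for 1154 of all 2192 regions and for 400 of the 453 called higher, so it does not set the members apart. In the authors' deposited table the 0 h mean was 0.770 normalised reads per region for all 10 members, and the 24 h means ran from 34.3 at tpi1 to 156 at pyk1, with a median of 95.2. All 10 rose at an FDR of 0.05 and 0 fell, where the FDR is the authors' adjusted p. Against this, 32.7% of the 1385 regions with a p below 1 were called higher and 0.722% lower, while 10.5% of all protein-coding genes lay under a region called higher and 0.196% under one called lower. Of the 2800 protein-coding genes under any listed region, 19.1% were under one called higher. The members were chosen with earlier results of these data known, so these shares stand beside the 10 as description and not as a test. No fold can be taken against a minimum, so each fold below is a lower bound that puts the 0 h mean at 2.31 normalised reads, or 3 times the minimum (a floor of 3 counts in every library). The bound applies to the values as deposited, and the sources used here do not say whether input reads had been taken off.

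**Figure D1:**
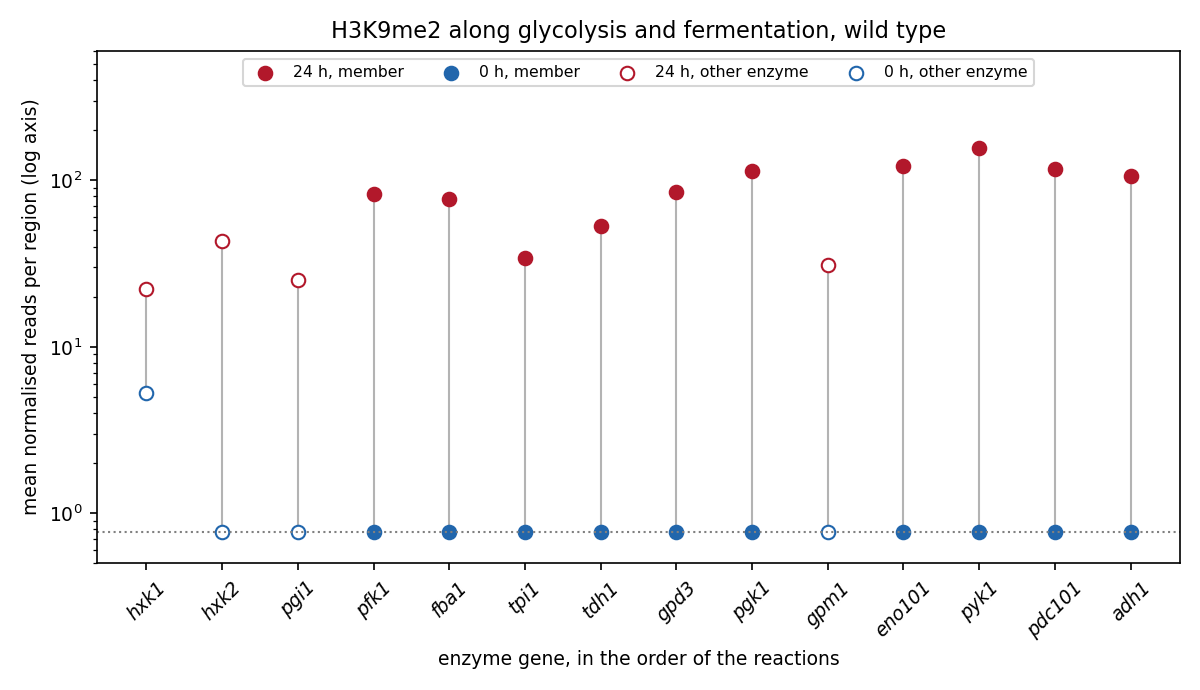
Mean normalised reads per region (log axis) at 0 h (blue) and 24 h (red) in the authors' deposited table, for the enzymes in the order of the reactions. Filled points are the 10 members and open points the other glycolytic enzymes under a region; the dotted line is the 0 h minimum of 0.770. Every member starts on that line at 0 h and stands between 34.3 and 156 at 24 h.

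The first 3 members act on hexose phosphates and triose phosphates. The region over pfk1, which encodes 6-phosphofructokinase, the enzyme that commits sugar to glycolysis, stood at a 24 h mean of 83.1 normalised reads in the authors' deposited table, at least 36.0-fold above 0 h (FDR = 0.000983). The aldolase gene fba1, whose product cuts fructose bisphosphate into triose phosphates, reached 76.9 in the same table, at least 33.3-fold higher (FDR = 0.000483). The triose-phosphate isomerase gene tpi1 had the lowest 24 h level and the lowest bound of the 10, with 34.3 normalised reads and at least 14.8-fold (FDR = 0.00338, the authors' deposited table).

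The glyceraldehyde-3-phosphate dehydrogenase step, where NADH is made, is served by the near-identical pair shown above. In the authors' deposited table gpd3 stood at 84.5 normalised reads at 24 h, at least 36.6-fold higher (FDR = 0.000342). The same table gave 53.5 for tdh1, at least 23.2-fold higher (FDR = 0.00187). Whether reads from one copy were counted for the other could not be seen in the table.

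The last 5 members act from phosphoglycerate kinase to alcohol dehydrogenase, and their means per region lay between 106 and 156 normalised reads. The mutase gene gpm1, whose product acts between pgk1 and eno101, is no member and stood lower per region, at 30.9 (the authors' deposited table). Its region was only 600 bp long. Per kb of region gpm1 had 51.5 normalised reads at 24 h, above tdh1, tpi1 and pfk1 and below all other members. The gene pgk1 encodes the kinase that makes the first ATP of the pathway, and its region stood at 114 normalised reads at 24 h, at least 49.4-fold above 0 h (FDR = 0.000186, the authors' deposited table). Enolase, encoded by eno101, makes phosphoenolpyruvate, and its region reached 122 normalised reads (at least 52.7-fold, FDR = 0.000159, the authors' deposited table). The pyruvate kinase gene pyk1 had the highest level, 156 normalised reads, and the largest bound, at least 67.6-fold (FDR = 0.000118, the authors' deposited table). The 2 fermentation genes were close to enolase. By the authors' deposited table pdc101, for pyruvate decarboxylase, stood at 118 (at least 50.9-fold, FDR = 0.000159) and adh1, for alcohol dehydrogenase, at 106 (at least 45.9-fold, FDR = 0.000231).

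These values are means, and the libraries behind them could be taken apart. Each group mean is the minimum plus whole multiples of what 1 read is worth in each library, and 1 set of whole counts, to within a relative 3e-14, gave the mean of 2177 of 2192 regions at 0 h and of 2175 at 24 h. A group was taken to hold 5 libraries, because the sheet's name lists that many digits. The solution was set up with signal in 2 libraries at 0 h and in 3 at 24 h. The latter are here called A, B and C from most to least signal over the resolved regions. This setting places the other 2 libraries at 24 h and the other 3 at 0 h at their minimum in every resolved region. A region with signal in those libraries would most likely have stayed unsolved. The recovered libraries carry no replicate number, so none can be matched to a label. Values per library below are normalised reads above that library's minimum.

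All 10 members were resolved, and at 0 h 0 of the 10 had signal in any library. At 24 h 7 members had signal in all of A, B and C, and pfk1, tpi1 and tdh1 had signal in A and B only. For comparison, signal lay in 3 libraries for 29.0% of the 451 regions called higher with a recovered make-up (131 regions) and in 2 libraries for the other 320. Library B exceeded library C in 10 of 10 members, and library A exceeded library B in 7 of 10. Of the members' summed signal, 46.4% came from library A, 39.2% from B and 14.4% from C. The same shares were 58.1%, 33.4% and 8.50% over the regions called higher, and 73.8%, 20.3% and 5.84% over all resolved regions.

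**Figure D2:**
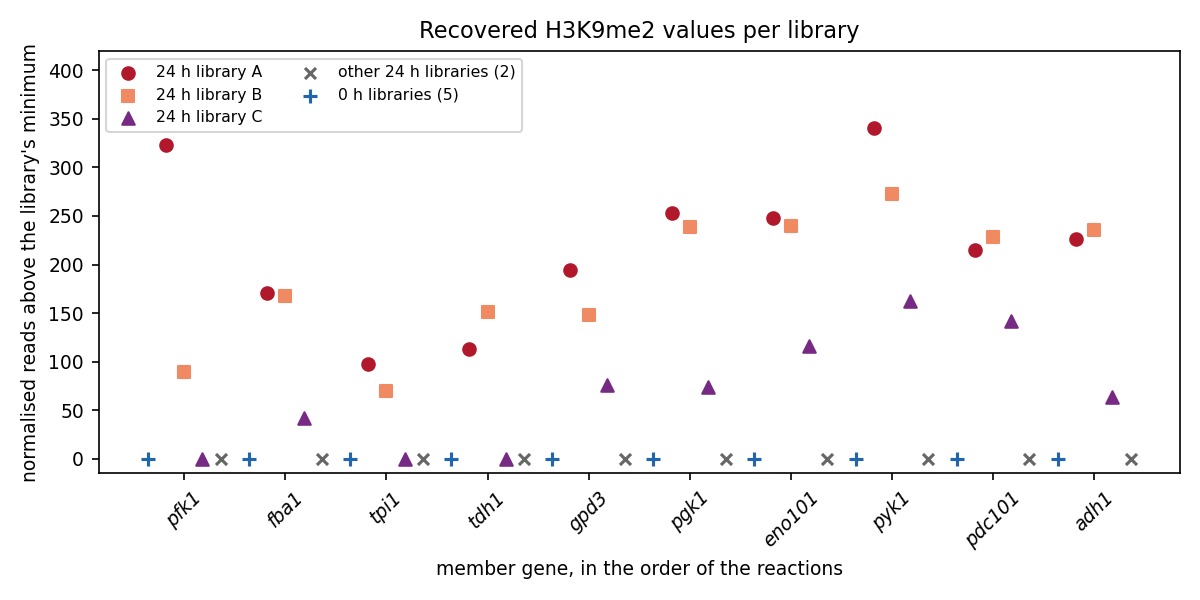
Recovered normalised reads above the library's minimum, per library, for each member in the order of the reactions; circles, squares and triangles are the 24 h libraries A, B and C, crosses the other 24 h libraries and plus signs the 0 h libraries. The 0 h libraries and 2 of the 24 h libraries lie at 0 for every member, and library C is at 0 for pfk1, tpi1 and tdh1.

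For pyk1 the recovered values at 24 h were 340 normalised reads in library A, 273 in B and 163 in C. For eno101 they were 248, 240 and 116, in the same order. For pdc101 they were 215, 228 and 141. In these members A and B were close to each other and C was lower, yet well above the libraries at their minimum. For pgk1 the 3 values were 253, 239 and 74.4, and for adh1 they were 227, 236 and 63.2. For gpd3 they were 195, 148 and 75.9, and for fba1 171, 168 and 41.7. In each of these 7 genes the 24 h group still overlapped the 0 h group, because 2 of its 5 libraries stood at the minimum like all libraries at 0 h.

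The other 3 members rested on A and B. For tpi1 the values were 97.4 in A and 70.0 in B, and for tdh1 they were 113 and 151. In pfk1 a single library held most of the signal, with 323 normalised reads in A against 89.0 in B. Without library A the 24 h mean of pfk1 would be 23.0 normalised reads in place of 83.1, and that of tpi1 18.3 in place of 34.3. Without library B the mean of tdh1 would be 28.9 in place of 53.5. For the other 7 members, leaving out any 1 of A, B and C moved the mean by less than 1.5 times. All 10 stayed above their 0 h value, as they had to with signal in more than 1 library and a 0 h value at the minimum.

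A test on the recovered values did not reach the threshold that the authors' test passed. limma on log2(value + 1) over 2174 regions called 0 members at an adjusted p of 0.05 (adjusted p = 0.611 for all 10) and 7 members at an unadjusted p under 0.05. It called 0 of the 2174 regions at the adjusted p, and 3.36% of them were higher at an unadjusted p under 0.05. The calls of all 10 members thus stand in the authors' test and not in limma's on the recovered values. An exact permutation test (two-sided, 5 libraries assumed per group) could not pass here: with all other libraries tied at the minimum, its p is 0.167 for any member with signal in 3 libraries and 0.444 for any with signal in 2, whatever the size of the signal.

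The order of the members by mean level was pyk1, eno101, pdc101, pgk1, adh1, gpd3, pfk1, fba1, tdh1 and tpi1. Among neighbours in this order, pyk1 lay above eno101, pgk1 above adh1 and fba1 above tdh1 in all 3 libraries with signal. The steps from eno101 to pdc101, from pdc101 to pgk1, from adh1 to gpd3, from gpd3 to pfk1 and from pfk1 to fba1 turned in at least 1 of these libraries. The order of those neighbours thus did not hold in every library, and no step of the order was tested. Between tdh1 and tpi1 the order held in A and B, with both at 0 in C.

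A longer region gathers more reads, so levels were also set per kb of region. The median over the 10 members was 73.4 normalised reads per kb at 24 h, against 22.2 for all 453 regions called higher. On this scale pyk1 (96.6) and eno101 (93.1) stayed first, followed by pgk1 (84.3), fba1 (75.0), pdc101 (73.5), gpd3 (73.4) and adh1 (71.6). The last 3 were tdh1 (33.2), tpi1 (24.4) and pfk1 (17.3), the same 3 genes that lacked signal in library C. The 10 thus fell into 7 genes between 71.6 and 96.6 per kb and 3 genes at 33.2 or less. The place of pfk1 changed most, from rank 7 of the 10 by level per region to the last per kb, as its region was 4805 bp long and those of the other 9 were between 1025 and 1615 bp.

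Among the 453 regions called higher, the members were near the top. By 24 h level pyk1 ranked 8, eno101 23, pdc101 26, pgk1 27 and adh1 29, and 9 of the 10 members were within the first 100, with tpi1 at rank 155. Per kb the ranks were 4 for pyk1, 7 for eno101 and 10 for pgk1, while tdh1 stood at 110, tpi1 at 202 and pfk1 at 296. The median 24 h level per region was 95.2 normalised reads for the members and 24.3 for all regions called higher.

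**Figure D3:**
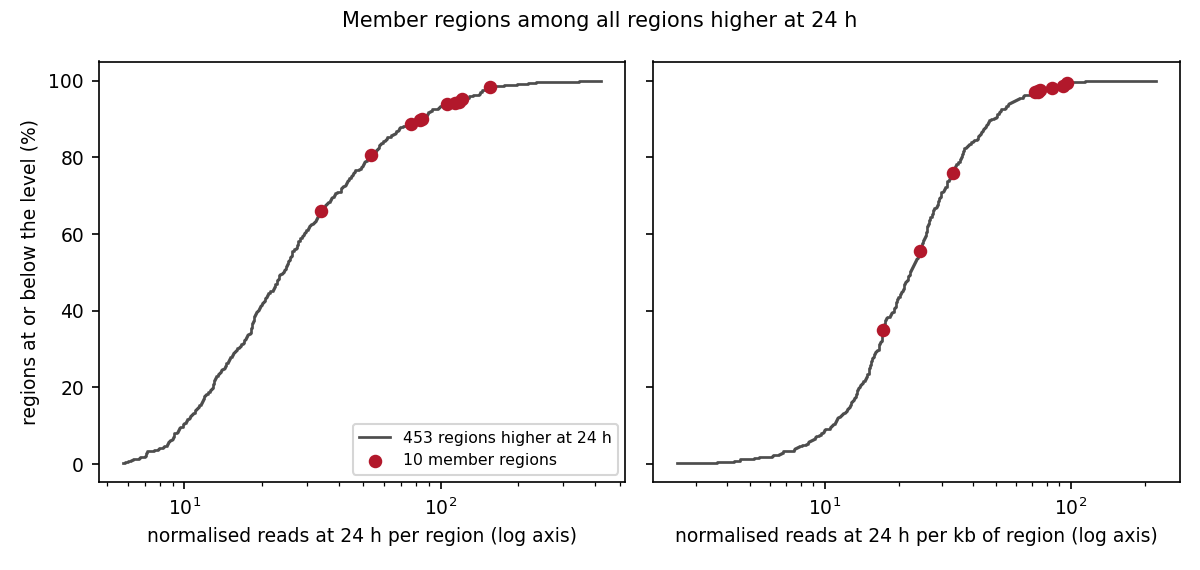
Share of the 453 regions higher at 24 h that lie at or below a given 24 h level (both level axes are log axes), per region on the left and per kb of region on the right, with the 10 member regions as red points. Per kb, 7 members lie between 71.6 and 96.6 at the upper end, and tdh1, tpi1 and pfk1 lie lower.

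The regions covered between 91.1% and 100% of each member's coding sequence, with a median of 96.7%, and 7 of the 10 lay wholly inside the annotated gene. Coding sequence of any gene made up 87.9% of a member region at the median, against 98.8% over all regions called higher on the 3 chromosomes. The member's own coding sequence made up between 53.4% and 58.9% of the region in tpi1, tdh1 and pfk1. For pfk1 this leaves out the part of its region that lies in uba2. The region over eno101, at chromosome II 2201294 to 2202600 (build ASM294v2 for all regions), began 57 bp after the start codon and ended 44 bp past the last coding base. The region over pyk1, at chromosome I 3844890 to 3846504, began 38 bp after the start codon and ended 123 bp past the last coding base. In pdc101 it lay at chromosome I 101846 to 103446 and stopped 10 bp short of the last coding base.

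In gpd3 the annotated gene starts far upstream of the coding sequence. Its start codon lies 614 bp from the annotated gene start. The gpd3 region, at chromosome II 578682 to 579832, began at position -49 bp relative to that start codon. The regions over fba1 (chromosome II 1688463 to 1689487), pgk1 (chromosome II 4158012 to 4159365) and adh1 (chromosome III 1591357 to 1592836) likewise lay inside their genes. The adh1 region ran 425 bp past the last coding base into the annotated 3′ part of the gene. The nearest other region of the table lay between 1148 and 5427 bp away from each member region.

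The same 3 genes with 2 libraries of signal were the ones whose regions left the gene. The pfk1 region, at chromosome II 2295664 to 2300468, covered the whole gene and ran 1500 bp past its end into uba2, which encodes a subunit of the SUMO-activating enzyme, so its reads cannot be given to pfk1 alone. It was the 1 member region that overlapped another protein-coding gene. The tpi1 region, at chromosome III 939329 to 940732, began at position -584 bp relative to the gene start. The tdh1 region, at chromosome II 2807727 to 2809338, ended 287 bp past the gene end. Of the 10 regions 8 overlapped an annotated long non-coding RNA on either strand. The same held for 68.7% of the 451 regions called higher on the 3 chromosomes and 73.1% of the 1381 regions there with a p below 1. In 6 of the 10 the RNA lay on the strand opposite to the member, a share not counted over other regions.

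**Figure D4:**
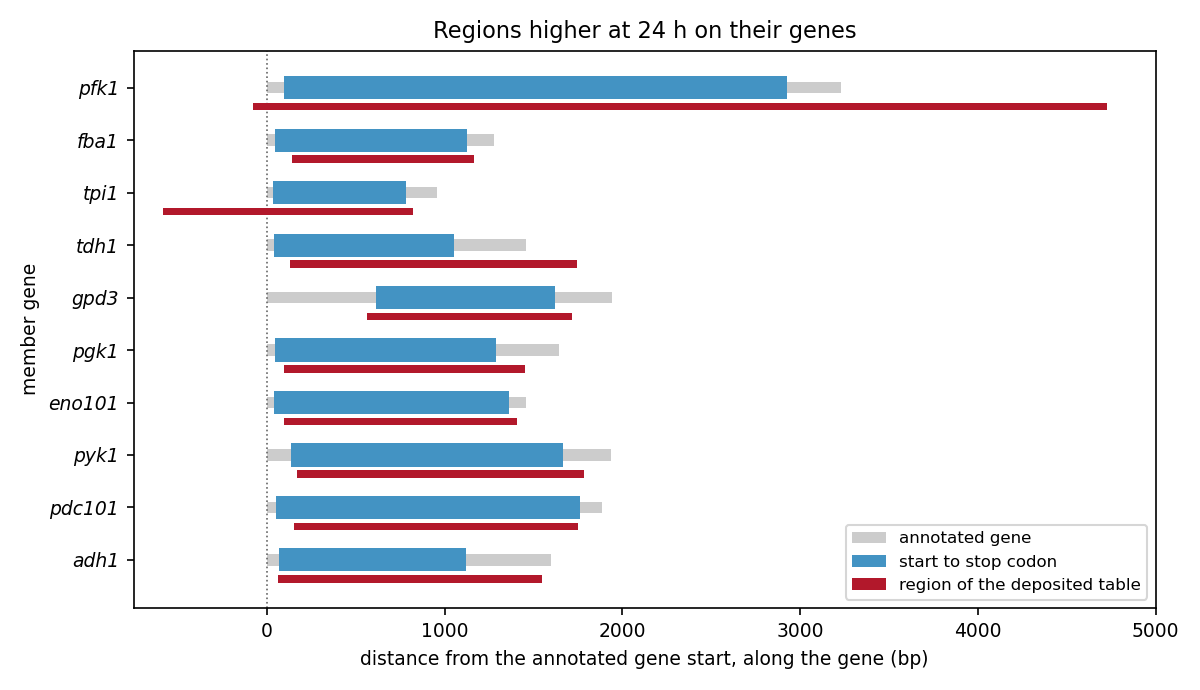
Position of each member's region (red) on its gene (grey) and on the stretch from start to stop codon (blue), in bp from the annotated gene start and read along the gene. The regions of 7 members lie inside the gene, and those of pfk1, tpi1 and tdh1 extend past 1 end or both.

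The members share a feature of sequence that did not enter their choice. Their coding sequences are rich in G or C at the last position of codons, where many amino acids leave the base free, with values from 44.3% in pfk1 to 65.7% in fba1 and a median of 61.4%. The median of 5111 protein-coding genes was 32.8%, and all 10 members lay above the 95th percentile of these genes, 43.7%. Of 535 genes under a region called higher, 111 (20.7%) lay above that percentile, and of genes under a tested region that was not called 3.00% did. Read the other way, 43.4% of the 256 genes above it lay under a region called higher. Genes share these libraries and the members are few, so the shares describe the table, and the part of base composition in the calls was not tested.

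The first 60 coding bases show this feature for the 3 members with the highest level per kb, for pfk1 as the lowest, and for eno102, an enolase gene under no region. As a contrast, eno102 was picked for having the lowest share of G or C at the last codon position among the listed genes under no region. They are read on the coding strand of the RefSeq genome ASM294v3, with G or C at the last codon position in capitals, and each line holds 20 codons.
pyk1 (chrI:3846483-3846542, minus strand): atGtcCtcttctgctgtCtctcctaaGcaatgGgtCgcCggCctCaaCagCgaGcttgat
eno101 (chrII:2201237-2201296, plus strand): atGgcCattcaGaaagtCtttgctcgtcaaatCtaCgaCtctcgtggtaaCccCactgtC
pgk1 (chrII:4159357-4159416, minus strand): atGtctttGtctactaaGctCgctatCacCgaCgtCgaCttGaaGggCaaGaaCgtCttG
pfk1 (chrII:2300235-2300294, minus strand): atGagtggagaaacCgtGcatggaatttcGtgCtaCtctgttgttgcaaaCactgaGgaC
eno102 (chrII:59587-59646, minus strand): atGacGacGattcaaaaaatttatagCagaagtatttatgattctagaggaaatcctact

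Capitals stood at 16 of 20 codons in pgk1, 12 in pyk1, 10 in eno101, 9 in pfk1 and 4 in eno102. Over whole coding sequences the share was 62.0% in eno101 and 31.3% in eno102, which encode the same enzyme. Listed genes outside the members also lay above the 95th percentile. Among them were gpm1 (65.1%), called higher, and pgi1 (48.1%) and the glycerol gene gpd1 (48.7%), which were not called. In the 250 bases before the gene start the letters TATAAA, on either strand, were found in 5 of the 10 members (tdh1, gpd3, pgk1, pyk1 and adh1) and in 44.4% of all protein-coding genes, a share close to that of the members.

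**Figure D5:**
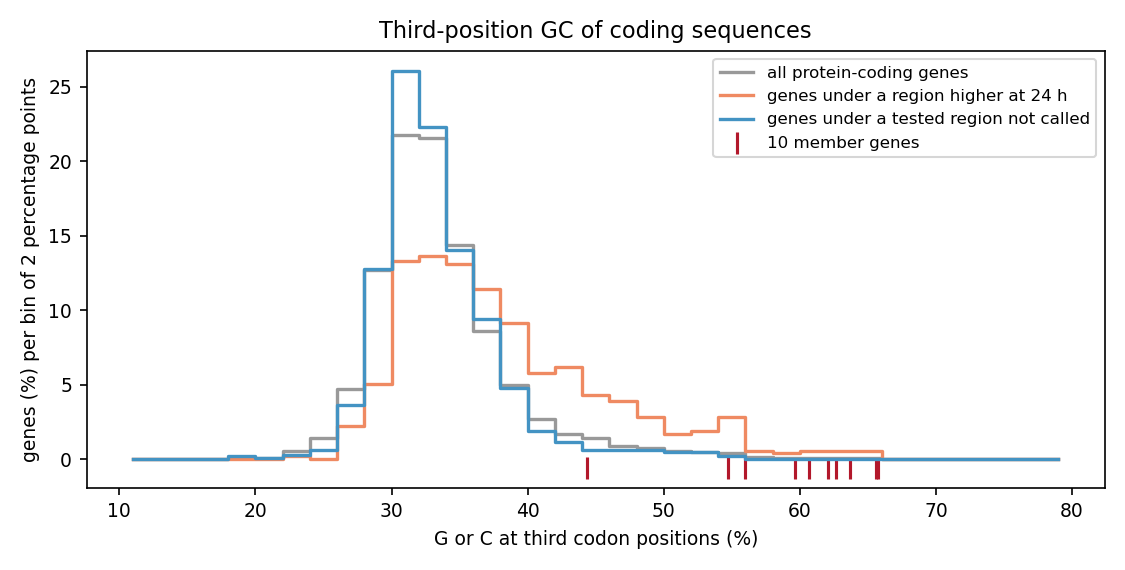
Share of genes in bins of 2 percentage points of G or C at the last codon position, for all protein-coding genes (grey), genes under a region higher at 24 h (orange) and genes under a tested region not called (blue), with the 10 members as red ticks. The members lie between 44.3% and 65.7%, all above the 95th percentile of 43.7%.

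The remaining enzymes of the same reactions are described by their counts, with no test against the members, which were chosen with earlier results known. Of 6 further glycolytic and gluconeogenic genes matched in RefSeq, 2 lay under a region called higher, 0 under one called lower, 2 under tested regions that were not called, 1 under a region listed with a p of 1 and 1 under no region. The hexokinase gene hxk2 rose to 43.2 normalised reads at 24 h, at least 18.7-fold (FDR = 0.00158), and the phosphoglycerate mutase gene gpm1 to 30.9, at least 13.4-fold (FDR = 0.00247), both in the authors' deposited table. The second hexokinase gene, hxk1, had 5.29 normalised reads at 0 h and 22.4 at 24 h in that table (FDR = 0.342). The glucose-6-phosphate isomerase gene pgi1 was listed with a p of 1 and a 24 h mean of 25.0 in the authors' deposited table. Its recovered signal was 121 normalised reads in library A and 0 in B and C. For fbp1, the bisphosphatase of gluconeogenesis, the authors' deposited table gave 0.770 and 3.33 normalised reads (FDR = 0.164).

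Between pgi1 and the members the make-up of the libraries differed. Of the 806 resolved regions listed with a p of 1, 679 had signal in library A alone at 24 h, as pgi1 had. No member was among the regions listed with a p of 1.

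Fermentation and the use of acetaldehyde and acetate gave 5 called genes of 9, all higher. The pyruvate decarboxylase gene pdc201 rose to 45.3 normalised reads, at least 19.6-fold (FDR = 0.00227, the authors' deposited table). The aldehyde dehydrogenase genes atd1, atd2 and atd3 stood at 45.3, 14.9 and 18.2 normalised reads at 24 h in the same table, and the acetyl-CoA synthetase gene acs1, already above the minimum at 0 h with 1.41, stood at 54.7 (FDR = 0.00537). Of the other pyruvate decarboxylase genes, pdc202 was listed with a p of 1 at 11.8 normalised reads, and pdc102 lay in the broad domain at the right end of chromosome I, which went from 40053 to 18494 normalised reads (FDR = 0.176, the authors' deposited table). The alcohol dehydrogenase genes adh4 and adh8 were not called, with 24 h means of 1.89 and 24.0 and FDR values of 0.407 and 0.178 by the authors' deposited table. At 106 and 118 normalised reads, adh1 and pdc101 thus had the highest 24 h means among the listed alcohol dehydrogenase and pyruvate decarboxylase genes outside that domain.

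Side branches and the pathway beyond pyruvate were counted in the same way. Of 8 matched pentose phosphate genes 5 were called higher and 0 lower. The transketolase gene tkt1 reached 98.7 normalised reads by the authors' deposited table, the transaldolase gene tal1 61.5 and the 6-phosphogluconate dehydrogenase gene gnd1 40.7, while zwf1, for glucose-6-phosphate dehydrogenase, and zwf2 (gcd1 in RefSeq) had 20.6 and 7.88. Of 18 genes of pyruvate dehydrogenase and the citric acid cycle 5 were called higher and 0 lower. These were, with 24 h means from the authors' deposited table, the aconitase gene aco1 (86.2), kgd1 (59.8), the malate dehydrogenase gene mdh1 (36.1), the citrate synthase gene cit1 (29.7) and lsc1 (28.9). Of 9 glycerol and trehalose genes 1 was called higher, the trehalose-phosphate phosphatase gene tpp1 at 67.1 (FDR = 0.0222), and 0 lower. Called higher were thus 33.3% of the further glycolytic genes, 55.6% of the fermentation genes, 62.5% of the pentose phosphate genes, 27.8% of the citric acid cycle genes and 11.1% of the glycerol and trehalose genes, against 10.5% of all protein-coding genes and 19.1% of those under a listed region. Of the 18 genes called in all these lists, 7 (atd1, gnd1, tkt1, tal1, kgd1, lsc1 and tpp1) lay under a region that also overlapped another protein-coding gene, so their reads cannot be given to them alone.

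The recovered make-up of the called genes of these lists was as follows. Signal came from 3 libraries for 6 of these 18 genes and from 2 for 12. Without library A the 24 h mean fell by more than 1.5 times in 16 of the 18, to between 3.27 and 53.3 normalised reads, and in 2 of the 10 members. The 2 others of the 18, gpm1 and pdc201, fell by more than 1.5 times without library B, from 30.9 to 20.2 and from 45.3 to 25.1, as did aco1, from 86.2 to 55.1. No test of this difference was made. Median 24 h levels in the authors' deposited table were 95.2 normalised reads for the members, 25.0 for further glycolysis, 24.0 for further fermentation, 20.6 for pentose phosphate, 28.9 for the citric acid cycle and 37.6 for glycerol and trehalose, against 15.1 over all 2192 regions.

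Nearest to the members' median in the plane of both group means were lrs1, the leucyl-tRNA synthetase gene, with 0.770 and 92.4 normalised reads, and ayr2 and plb4, which share a region with 0.770 and 97.0, by the authors' deposited table. This likeness rests on 2 group means.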

How the data were processed

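Chromatin was cross-linked, immunoprecipitated and sequenced, per the labels' protocols. Named per the submitters' processing notes, without role or order, are DiffBind 1.16.3, DESeq2, MACS2 2.1 and Bowtie2 2.2.7, and build ASM294v2. The authors deposited, for each region, log2 values (mean normalised reads of each group, and their fold), a p-value and an FDR, per the file headers. How regions were merged and filtered is not stated. Adjusting the deposited p-values by Benjamini-Hochberg over the 1385 regions with a p below 1 gave the deposited FDR to within 1.5e-15.

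Here log2 means were turned into normalised reads and the fold was signed as 24 h minus 0 h. The fixed design allowed for counts; since the tables hold means, the authors' FDR (threshold 0.05) was the main test. Gene bodies came from RefSeq ASM294v3, whose chromosome lengths equalled the last region ends on all 3 chromosomes; 60 of 62 listed symbols matched, and 1 further gene of these lists is not reported here. The number of libraries with signal was given to the method, and read weights per library were taken from the smallest differences between means. Means up to 600 were solved for whole counts. On 1000 simulated regions per group 100% were recovered. The simulation held a region with 1 read from each library with signal, so it did not test the weights where such regions are missing. With each value shifted by a constant, 0 of 1026 and 0 of 2029 were solved. limma 3.58.1 (R 4.3.3, mean trend, pseudocount 1) and exact permutation tests (scipy 1.17.1) used the recovered values, with unsignalled libraries at 0; the permutation test was added after seeing the data. A fold on the log2(value + 1) scale understates changes of low regions. The alternatives tried were the FDR, the overlap, the scaling, the floor, the pseudocount and leaving out libraries.

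All 10 members were named, as were called genes of the other lists and each further glycolysis or fermentation gene. Members and lists were chosen with earlier results of these data known. The remaining libraries were not analysed. Since separate cultures are not stated, p-values cover only the variation among these libraries, possibly technical.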

Additional observations from a re-analysis of the deposited data

Results flagged for a closer look

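In 13 of 39 sets of 5 recovered values, 1 library stood apart, its gap to the next exceeding 0.71 of the range. The usual chance rate of about 1 in 20 sets holds for normally distributed values and does not apply here. Of the 5 values, 2 at 24 h and 3 at 0 h were set at 0, so a set with signal in 1 library always has a gap of 1. Of the members this was pfk1 at 24 h, with a gap of 0.724 of the range: library A held 323 normalised reads above its minimum and the next library 89.0. The signal at pgi1, pdc202, fbp1 and adh4 at 24 h and at hxk1, adh8, acs1 and aco1 at 0 h came from 1 library alone, a gap of 1 in each, with 121, 55.1, 12.8 and 5.59 normalised reads at 24 h and 22.6, 14.7, 3.20 and 3.84 at 0 h. The gap was 0.887 at kgd1 (265 against 30.0), 0.825 at lsc1 (120 against 21.0) and 0.791 at tpp1 (254 against 53.0) at 24 h, and 0.853 at tpp1 at 0 h (12.8 against 1.88). In all the 24 h cases the high library was library A, which had signal in the most resolved regions. Its part in these values was not tested beyond leaving it out.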

How the results depend on the processing

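All 10 members stayed called higher at an FDR of 0.01, with 50% of the gene or of the region required to overlap, with coding sequence only, with genes extended by 500 bp and with the adjustment over all 2192 regions. They stayed higher after scaling to the same total or to the same median of regions with a p below 1 (a shift of 1.72 on the log2 scale), neither with a test. On the recovered values limma called 0 of 10 with a pseudocount of 1 or 0.5 (7 at an unadjusted p under 0.05 with either), and the exact permutation test, chosen after seeing the data, 0, which it could not have passed with so many libraries tied. Leaving out 1 library at a time, limma called between 0 and 0 members, with 0 to 7 at an unadjusted p under 0.05. These tests count 2 or 3 libraries at the minimum per 24 h group, so no conclusion on the members' calls is drawn from them. The median member level was 73.4 normalised reads per kb at 24 h and 0.534 at 0 h, and with 1 count per library as floor the median bound was 124-fold in place of 41.3-fold. The other lists gave 18 called genes of 50, 13 to 19 under the overlap and FDR alternatives and 0 with limma. No paired analysis was possible because the recovered libraries carry no replicate numbers.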
